A study of Mus musculus with 8 samples.

Results

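Resident-like Lyve1 and Cd163 macrophages were described among CD45+ cells of healing mouse skin wounds, as 1026 of 35158 cells, or 2.92%. Male C57BL/6J mice were made diabetic with streptozotocin (STZ) at 120 mg/kg, given at 4 weeks of age after 12 h without food, and counted as diabetic once blood glucose reached 16.5 mmol/L after 7 days. Control mice had the same wound, 5 mm across and through the full skin of the back, and the sources name no vehicle for them. Live CD45+ cells, stained with calcein AM, were taken on days 1, 3, 5 and 7, and the wounds of 5 mice were pooled for each library. There were thus 8 libraries, 1 for each group and day, and the spread between animals of a group was not measured on any day. STZ destroys insulin-producing beta cells, so the model is one of insulin lack shortly after its onset, and both groups otherwise share strain, sex and wound.

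The members were chosen by their own transcript counts. Cells were barcodes in which more than 200 genes were detected and mitochondrial transcripts made up less than 20% of the UMIs (a UMI is 1 counted mRNA molecule). A member had a summed rate of C1qa, C1qb and C1qc of at least 20 per 10000 UMIs, a summed rate of Lyve1, Cd163, Cd209f and Fcna of at least 5, and a rate of Ctsk under 20. The levels of these 8 genes are therefore a description, and no test of them is read, although they were part of the fits across all genes. Of 9207 cells that reached the C1q rate, 1026 were members (11.1%), 151 were left out for Ctsk, and the remaining 8030 are called other C1q cells. Of the members, 488 of 18022 cells came from diabetic wounds and 538 of 17136 from control wounds. Close to the limit, 273 members had a rate of 5 to 10 for the 4 genes and 128 rested on 1 UMI of them. Of the 8030 other C1q cells, 393 had a rate of 2.5 to 5 for the 4 genes and 6047 had none.

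Macrophages of this kind live in the skin before injury, often along vessels and nerves, and are told from newly arrived monocyte-derived cells by scavenger and lectin receptors. Lyve1 binds hyaluronan, Cd163 takes up haemoglobin bound to haptoglobin, Cd209f is a C-type lectin of the DC-SIGN family, and Fcna encodes ficolin A, which recognises sugars on microbes and starts the lectin pathway of complement. In wounds, resident macrophages clear debris and supply growth factors beside a much larger wave of recruited cells.

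The libraries held 3266 to 5436 cells and 19236522 to 33842509 UMIs. The control day 5 library stood apart, with 28.6% of its barcodes removed and a median of 8234 UMIs per cell, against 2575 to 5219 in the other 7 libraries. Members had a median of 4785 to 7598 UMIs, and their summed UMIs ranged from 178129 to 2051433 per library. Free RNA was gauged in 1926 cells with T cell markers, which should lack the 4 resident genes. Their summed level of these genes was 0 to 60.1 CPM (UMIs scaled to the same total in each library), against 1589 to 3025 CPM in members, 23 T cells reached the rate of 5 for these genes, and 9 (0.467%) met the whole rule. The C1q genes were less separate: they summed to 143 to 2642 CPM in T cells, highest in the control day 5 library, against 7255 to 11286 CPM in members, and 219 T cells, 100 of them among 372 of the control day 7 library, reached the C1q rate. Scrublet marked 68 of 35158 cells (0.193%) as doublets, too few to say that it worked, so doublets were hardly tested.

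The label was checked against its markers. Of the 6 resident-like markers, 4 are genes of the rule, and Cbr2 and Retnla, which are not, were detected in every library, at 743 to 1773 and 22.5 to 2805 CPM. Of 8 general macrophage markers, 3 are C1q genes of the rule, and Adgre1, Csf1r, Mrc1, Fcgr1 and Mertk were also detected. Markers of lymphatic endothelium, which also carries Lyve1, summed to at most 16.1 CPM over the 3 that the tables list, Prox1, Flt4 and Reln, and Flt4 had 0 UMIs in members. Markers of other cells were present too. Neutrophil markers summed to 231 to 2997 CPM over the libraries and reached a rate of 10 in 562 members. Monocyte markers summed to 271 to 1965 CPM (187 members at that rate), osteoclast-like markers, which include Ctsk, to 37.0 to 559.6 CPM (78 members) and fibroblast markers to 16.1 to 501 CPM (51 members).

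Cd163 was the gene most members had in common. It was detected in 85.8% of them, Lyve1 in 41.6%, Fcna in 38.4% and Cd209f in 18.2%. A single gene of the 4 was detected in 507 members (49.4%), and Cd163 was that gene in 406. All 4 were found together in 91 members (8.87%). Most cells that the rule takes thus had no Lyve1 UMI, and Cd163 was their most frequent gene of the 4.

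The Cd163 gene lies on chromosome 6 of GRCm38, at 124304636 to 124330529. Its promoter is shown because this gene decided membership most often. The 250 bases before the start site listed by RefSeq (GRCm38.p6), chr6:124304401-124304650, plus strand, the last of which lie within the gene's span as given above, were searched on both strands for the PU.1 core GAGGAA and the MAF half-site TGCTGA, binding sequences of regulators that macrophages use.

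Cd163 promoter: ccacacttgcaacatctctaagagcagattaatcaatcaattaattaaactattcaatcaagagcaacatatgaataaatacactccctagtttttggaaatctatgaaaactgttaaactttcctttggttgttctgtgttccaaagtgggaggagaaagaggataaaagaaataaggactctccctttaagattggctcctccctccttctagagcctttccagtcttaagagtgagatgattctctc

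Neither letter run was found there, so no base is in capitals. GAGGAA was present in 23.3% and TGCTGA in 16.1% of 32817 promoters of the same length. Of the 4 resident genes, 3 were found in the promoter table. The window of Fcna, which lies inside that gene's listed span, held 3 GAGGAA and 2 TGCTGA, and that of Cd209f, which overlaps its gene, held none. Both windows overlap their genes by more bases than that of Cd163 does, and their letters are not shown.

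Members were unevenly spread over days and groups. On days 1, 3, 5 and 7 there were 32, 233, 29 and 194 members in diabetic wounds and 52, 38, 257 and 191 in control wounds. As a share of all cells this was 0.673% (95% exact binomial interval 0.461 to 0.948), 4.29% (3.76 to 4.86), 0.693% (0.465 to 0.994) and 5.32% (4.61 to 6.10) in diabetic wounds. In control wounds it was 1.18% (0.881 to 1.54), 0.791% (0.560 to 1.08), 7.87% (6.97 to 8.85) and 4.10% (3.55 to 4.72). The share was thus low on day 1 in both groups, high on days 3 and 7 in diabetic wounds, and high on days 5 and 7 in control wounds.

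**Figure D1:**
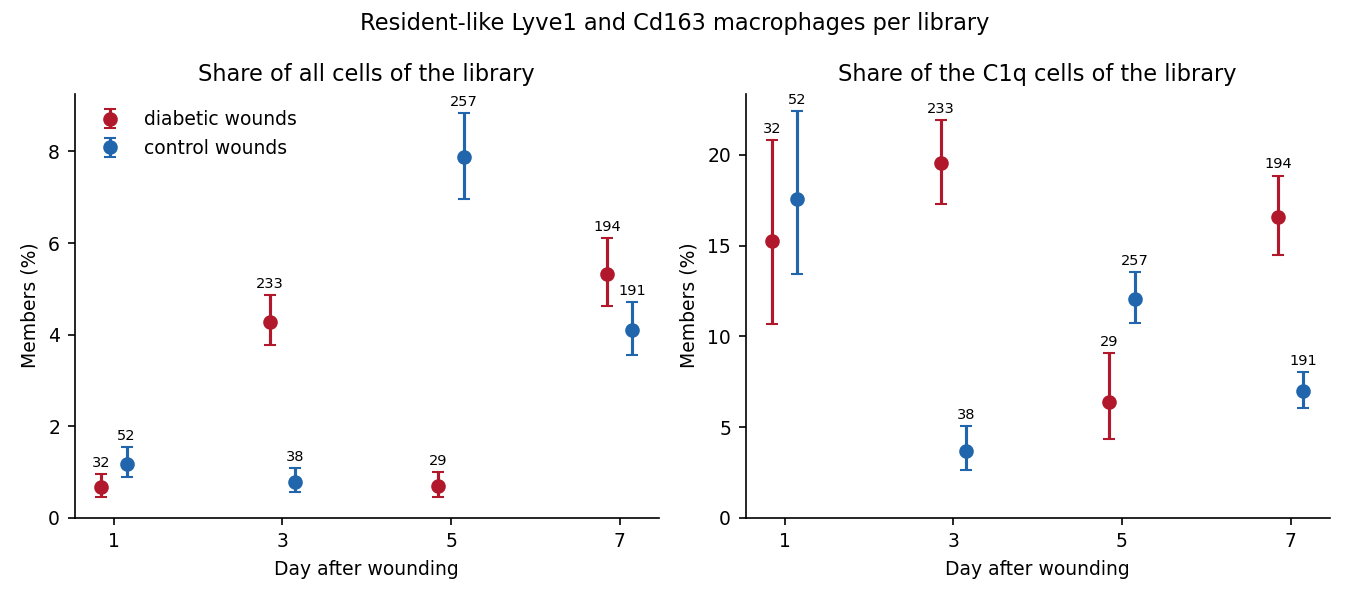
Share of members (%) among all cells (left) and among C1q cells (right) of each library, by day after wounding, with 95% exact binomial intervals that cover counting error only and the number of members above each point. Diabetic wounds reached 4.29% on day 3 and control wounds 7.87% on day 5.

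The question of whether diabetes shifted this population had no constant answer over days. The share in diabetic minus that in control wounds was -0.506 percentage points on day 1 (95% interval -0.927 to -0.101), 3.50 on day 3 (2.90 to 4.11), -7.18 on day 5 (-8.18 to -6.23) and 1.22 on day 7 (0.283 to 2.17). These intervals cover counting error only. The mean difference of -0.743 points, with diabetic wounds higher on 2 of 4 days, gave p = 0.875 in a two-sided exact sign-flip permutation test, in which 4 days cannot give less than 0.12. The difference of day 5 rests on the control library that stands apart in depth. After thinning to 1000 UMIs, which kept 2824 of 3266 control and 3787 of 4183 diabetic cells, this difference was -8.89 points. The rule was applied anew to the thinned cells, in which 1 UMI of the 4 resident genes was enough for their rate. Members then numbered 269 in control and 24 in diabetic wounds, against 257 and 29 at full depth. The effects of depth and of this easier rule cannot be told apart.

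Other immune cells set the first denominator, so the share among C1q cells was also taken. It was 15.2% (10.7 to 20.8), 19.5% (17.3 to 21.9), 6.40% (4.33 to 9.06) and 16.6% (14.5 to 18.9) in diabetic wounds and 17.6% (13.4 to 22.4), 3.70% (2.63 to 5.04), 12.1% (10.7 to 13.5) and 7.00% (6.07 to 8.02) in control wounds. Among C1q cells the differences on days 3 and 7 were 15.8 points (13.2 to 18.4) and 9.60 points (7.27 to 12.0), that on day 5 was -5.67 (-8.20 to -2.68), and that on day 1, -2.33 (-8.98 to 4.64), had an interval that held 0. The mean was 4.36 points, again with diabetic wounds higher on 2 of 4 days (exact sign-flip p = 0.5). The mean thus had opposite signs with the 2 denominators. After the same thinning, the day 7 difference in the share of all cells was -0.698 points, the opposite sign to that at full depth. With the rule applied anew, members of that day numbered 274 in control and 168 in diabetic wounds, against 191 and 194 at full depth.

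Lyve1 levels fell apart by library more than those of Cd163. In members of diabetic wounds Lyve1 stood at 961, 350.0, 331 and 156 CPM on days 1, 3, 5 and 7, and in control wounds at 354, 229.6, 715 and 332 CPM. A Lyve1 UMI was found in 68.8%, 35.2%, 37.9% and 23.2% of members in diabetic wounds and in 32.7%, 23.7%, 65.0% and 38.7% in control wounds. In T cells, whose median depth was 3198 to 4568.5 UMIs, at most 5.15% had one. After thinning to 1000 UMIs the shares in members were 51.6%, 17.3%, 23.1% and 11.6%, and 21.3%, 18.8%, 36.7% and 17.6%, with at most 1.68% in T cells. The diabetic day 1 and control day 5 libraries remained the highest of their groups.

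Cd163 was more even, at 1746, 2059, 1392 and 1923 CPM in diabetic and 1363, 949, 1335 and 1324 CPM in control wounds, so that each diabetic library lay above the control library of its day. On day 5 the values were close, and 49 of 248 Cd163 UMIs of the diabetic library lay in 1 of 29 members. Cd209f went the other way, at 64.5, 145, 225 and 41.5 CPM against 158, 238, 478 and 123 CPM, lower in diabetic wounds on all 4 days. In the diabetic day 5 library 28 of 40 Cd209f UMIs lay in 1 of 29 members. In the control day 7 library 78 of 190 lay in 1 of 191 members. Fcna measured 64.5, 126, 196 and 115 CPM against 103, 172, 497 and 181 CPM, also lower on each day. These 3 genes chose the members, so their values are a description. Cd209f has close paralogs (Cd209a, Cd209b, Cd209d and Cd209g, all on chromosome 8), between which reads may have been split, so the values of this family are uncertain.

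Of the markers outside the rule, Cbr2, a carbonyl reductase, was high throughout, at 1364, 1212, 1707 and 743 CPM in diabetic and 1217, 1492, 1773 and 1179 CPM in control wounds. Mrc1, the mannose receptor, ranged from 2187 to 3518 CPM. Ccl8, a chemokine that draws monocytes and T cells, stood at 1391, 2363, 7523 and 5267 CPM in diabetic and 536, 2574, 7097 and 3508 CPM in control wounds, lowest on day 1 and highest on day 5 in both.

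Retnla, a secreted protein of alternatively activated macrophages, varied most. It measured 741, 259, 22.5 and 893 CPM in diabetic and 449, 274, 2805 and 502 CPM in control wounds. On day 5 this was 4 UMIs in 3 of 29 diabetic members and 5754 UMIs in 140 of 257 control members. Single cells held much of the Retnla in small and large libraries, with 53 of 62 UMIs in 1 member of the control day 3 library. In the diabetic day 3 and day 7 libraries 1 member each held 117 of 350 and 422 of 1290 UMIs. Retnla was also found in up to 23.9% of the T cells of a library, and whether as free RNA or in doublets was not tested.

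**Figure D2:**
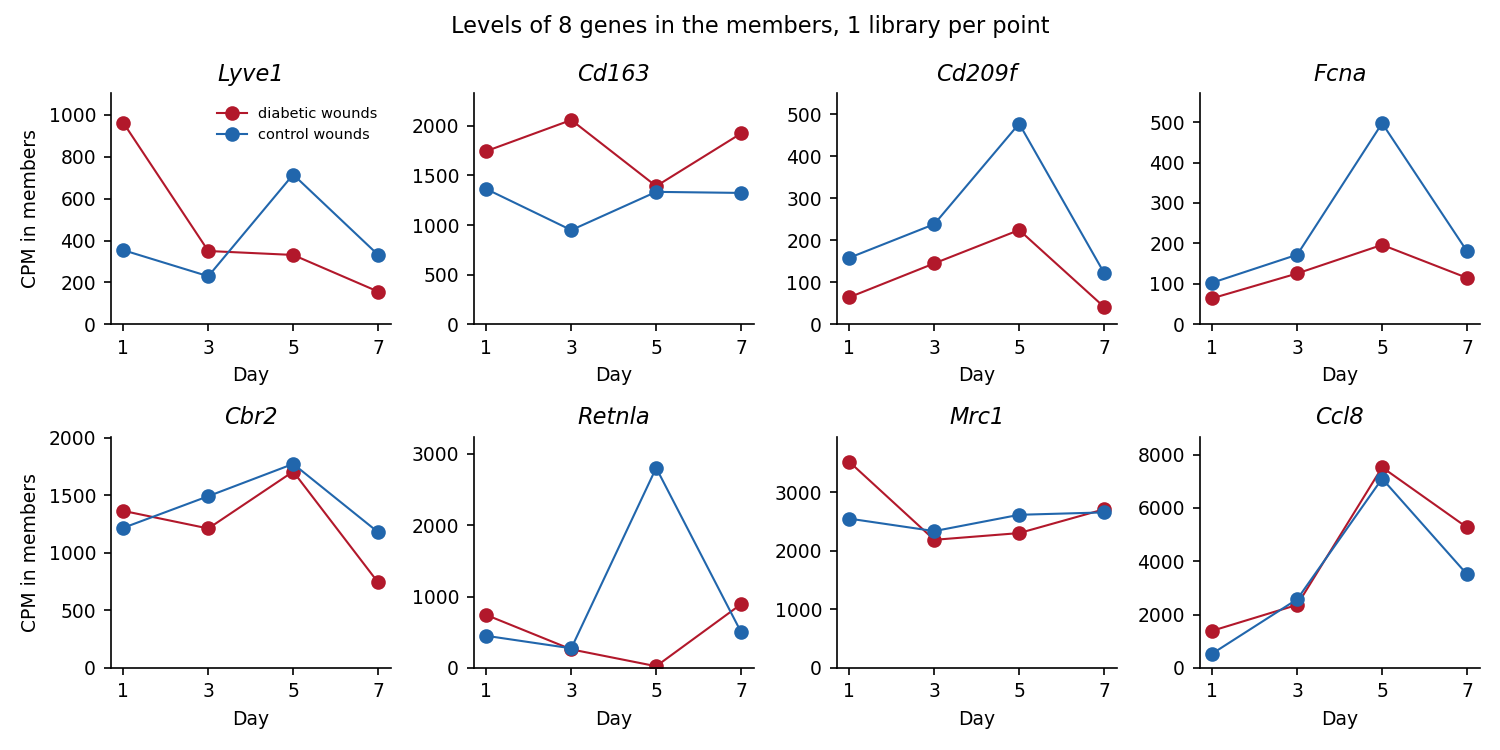
Levels (CPM of summed member UMIs) of 8 genes by day, with 1 library per point and lines joining the libraries of a group, so no error bar can be drawn. Cd209f lies lower in diabetic wounds on all 4 days, and Retnla in control wounds peaks at 2805 CPM on day 5.

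Members were next set against the other C1q cells of the same library, as a description, since the rule separated these classes. Of 12046 genes with enough UMIs, 37 were at least 2-fold higher in members in all 8 libraries (0.307%) and 3 at least 2-fold lower (0.0249%). The median log2 ratio over all genes was 0.11. The genes outside the rule whose ratio was furthest from 0 even in their weakest library are given with their known roles.

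The lectin Cd209b had a median log2 ratio of 5.22 (lowest to highest library, 4.48 to 6.29) and its paralog Cd209d one of 4.51 (2.41 to 6.38). Clec10a, a galactose-binding lectin, had one of 3.03 (2.29 to 4.00). Cd209b was found in 2 of 32 and 1 of 29 members of the diabetic day 1 and day 5 libraries. In the control day 3 and day 7 libraries it was found in 3 of 38 and 3 of 191. A single member held 13 of 14 UMIs on diabetic day 1 and 9 of 12 on control day 7. C6, a part of the membrane attack complex, lay 4.81 higher (3.70 to 8.40) and C4b, which the classical and lectin pathways cleave, 3.02 higher (2.33 to 4.48). The receptors Fgfr1 and Egfr were higher by 3.78 (2.88 to 4.41) and 3.37 (2.36 to 5.90). Ccl8 was higher by 3.13 (1.86 to 5.42) and Cbr2 by 2.60 (1.78 to 3.94). The remaining genes of the 12 were Chp2, Plekhg5 and Aldh7a1, with medians of 4.06, 3.45 and 2.29. Summed over members, these transcripts thus lay higher than in other C1q cells in every library, which does not show that most members carried them.

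Lower in members of all 8 libraries were Mmp14, a membrane-bound matrix protease, with a median of -2.06 (-3.84 to -1.39), and Il7r, the interleukin 7 receptor, with -1.47 (-3.62 to -1.33). Thbs1, an adhesive matrix protein, had -1.28 (-2.30 to -0.96), and Ptgs2, the inducible cyclooxygenase, -1.72 (-2.43 to -0.90). Sirpb1a, Hgf, Malt1, Basp1, Rgs1, Sirpb1c, Gm5150 and Cav1 completed this group, with medians between -1.13 and -1.92.

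**Figure D3:**
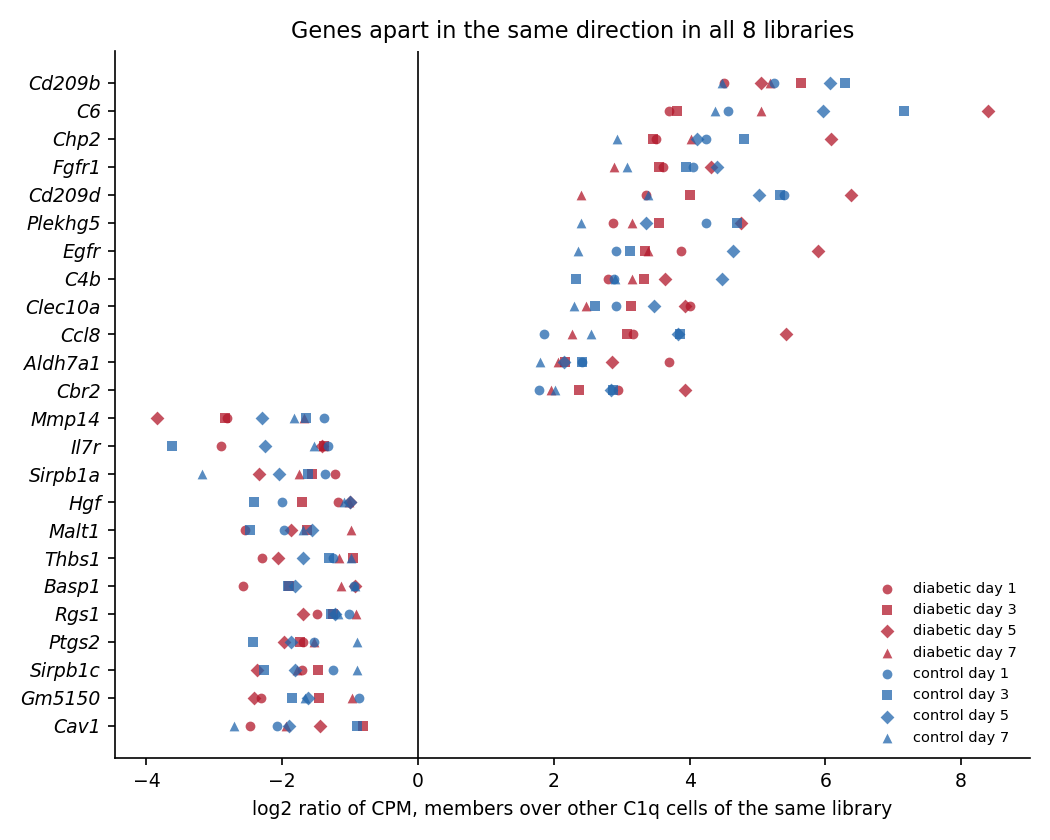
Log2 ratio of CPM in members over other C1q cells of the same library for the 12 higher and the 12 lower genes outside the rule whose weakest library was furthest from 0, with 1 symbol per library and no test. A count of 0 was set to 3. Cd209b, found in few members of some libraries, has a median of 5.22 and Mmp14 one of -2.06.

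Gene lists were counted by a looser criterion, a difference of any size with the same sign in all 8 libraries, which 472 of the 12046 genes met as higher (3.92%) and 586 as lower (4.86%). Of 28 resident macrophage genes outside the rule, 19 were higher and 0 lower, with a median of 2.01. Among them were Gas6, a bridge between dying cells and their receptors (2.04), Fcgrt, the neonatal Fc receptor (2.18), F13a1, the clotting factor XIII A chain (1.42), and Selenop, a selenium carrier (1.33). Of 15 monocyte-derived genes, 9 were lower in all 8 libraries and 0 higher, with a median of -0.70, such as Ly6c2 (-1.86) and Fn1 (-1.48). Of 19 lipid-associated macrophage genes, 8 were lower and 0 higher, with a median of -0.58, such as Gpnmb (-2.07), Spp1 (-1.61), Cd9 (-1.34) and Fabp5 (-1.21). Inflammatory mediators were lower in 5 of 20, Il1b among them (-1.44).

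Of 18 genes for clearance of dead cells, 5 were higher in members of all 8 libraries, among them Mertk (0.54) and Pros1 (1.93), and 5 lower, among them Axl (-1.52). Growth factors were higher in 6 of 14, Igf1 among them (1.99), and lower in 2, which were Vegfa (-1.62) and Hgf. Alternative activation genes were higher in 7 of 13 and lower in 1, with a median of 0.56. MHC class II presentation was lower in 1 of 11 genes, the protease gene Ctss (-0.50), and higher in 0. Cell cycle genes had a constant sign in 0 of 18. Immediate early genes were higher in 9 of 20 and heat shock genes in 6 of 13, with medians of 0.37 and 0.29 and 0 lower in either.

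Within the members, cells with and without a Lyve1 UMI were set side by side in the 4 libraries with at least 20 of both. Cells with Lyve1 numbered 82 and 45 in the diabetic day 3 and day 7 libraries and 167 and 74 in the control day 5 and day 7 libraries. They were deeper, with medians of 5939.5, 8463, 8541 and 8804 UMIs against 4092, 5824, 3583.5 and 6275. Of 7951 genes, 16 were at least 2-fold higher (0.201%) and 6 at least 2-fold lower (0.0755%) in all 4 libraries, which is a description and no test. The higher count holds Lyve1 itself, which the split fixes. It also holds the rule genes Cd209f and Fcna, whose levels the rule affects but does not fix.

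With Lyve1 went Vsig4, a complement receptor, at a median log2 ratio of 3.57 (2.87 to 4.13), Retnla at 3.23 (1.82 to 3.65), Enpep, an aminopeptidase, at 2.31 and C6 at 2.09. Vsig4 rests on few cells, 10 and 6 members of the diabetic day 3 and day 7 libraries and 14 and 5 of the control day 5 and day 7 libraries, with 21 of 26 UMIs of the last in 1 member. For Retnla, 1 member each held 117 of 350 and 422 of 1290 UMIs of the diabetic day 3 and day 7 libraries. Cells without Lyve1 had more Vegfa (-1.42, -1.72 to -1.05), Gpnmb (-1.17, -1.45 to -0.99) and Slc2a1, the glucose transporter (-0.97). Nothing is read from Cd163, Cd209f and Fcna, since a member without Lyve1 had to pass the rule through them.

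Diabetic and control members were compared over the 4 days with edgeR's quasi-likelihood test on UMIs summed per library, with day as a block. At an adjusted p of 0.05, 0 of 6938 genes passed (0.0%), and DESeq2 also called 0. At an unadjusted p under 0.05 there were 422 genes with edgeR and 272 with DESeq2. Without the filter on low counts, edgeR called 48 genes higher and 15 lower in diabetic members, but it then gave all genes 1 common spread (a prior with infinite degrees of freedom in place of 9.03). Of the 6938 genes, 539 were higher and 601 lower in diabetic members on all 4 days. A low p over the 4 days favours such genes, so a shared sign adds no support to genes picked by p.

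The genes nearest the threshold are given as values that did not pass it. Fxyd2, a regulator of the sodium pump, stood at 247, 158, 409.8 and 188 CPM in diabetic and 52.8, 97.1, 234 and 67.8 CPM in control members, a log2 difference of 1.27 (SE 0.25, edgeR adjusted p = 0.611). Lcn2, an iron-binding protein that neutrophils carry in quantity, stood at 408, 129, 185 and 111 against 106, 30.9, 6.34 and 65.8 CPM (2.16, SE 0.49, edgeR adjusted p = 0.611). Each diabetic library lay above the control library of its day for both genes. Without the control day 5 library the Lcn2 difference was 1.45. In the diabetic day 5 library, 17 of 33 Lcn2 UMIs lay in 1 of 29 members. Cd209a, Errfi1 and Prnp were the other 3 of the 5 lowest p-values on that side, with log2 differences of 1.19, 0.99 and 1.55. For Cd209a, 1 member each held 20 of 27 and 20 of 38 UMIs of the diabetic day 1 and day 5 libraries.

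On the other side, Cfp, which encodes properdin, the stabiliser of the alternative complement pathway, measured 526, 385, 298 and 293 CPM in diabetic and 845, 662, 605 and 487 CPM in control members (-0.79, SE 0.16, edgeR adjusted p = 0.611). Lipa, the lysosomal acid lipase, measured 64.5, 192, 247 and 462 against 209, 358, 529 and 673 CPM (-0.97, SE 0.20, edgeR adjusted p = 0.611). Both were lower in diabetic members on all 4 days. Hacd4 and Arc had differences of -0.97 and -1.92, also with the same sign on each day. Arc rests on few UMIs, with 0 and 1 in the diabetic day 1 and day 5 libraries and 4 in the control day 1 library.

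Inflammatory mediators leaned towards diabetic members as a group of values. Of 18 tested, 16 had a positive difference, 10 an unadjusted p under 0.05, and 0 passed, with a median log2 difference of 0.72 against -0.000567 over all genes. Over all genes, 422 of 6938 had an unadjusted edgeR p under 0.05, in either direction. Their summed level was 17102, 12962, 13137 and 8083 CPM in diabetic and 12951, 6384, 4249.7 and 7296 CPM in control members. Clec4e, a receptor for dead cells and mycobacteria, stood at 1875, 1489, 1813 and 981 against 1854, 543, 398 and 609 CPM, a log2 difference of 1.09 (SE 0.28, edgeR adjusted p = 0.622). Il1b stood at 1187, 1229, 1712 and 674 against 856, 494, 282 and 624 CPM (1.12, SE 0.33, edgeR adjusted p = 0.622). The groups were furthest apart on days 3 and 5 for both, but in the diabetic day 5 library 1 of 29 members held 127 of 323 Clec4e and 107 of 305 Il1b UMIs.

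Summed neutrophil markers were higher in diabetic members on days 1, 3 and 5 and lower on day 7, at 2997, 2111, 2863 and 946 CPM against 2784, 1642, 231 and 1394 CPM, and their part in these values was not tested. In the other C1q cells the summed mediators were also higher in diabetic wounds on each day, with 22913, 16330, 14859 and 12831 CPM in diabetic and 20732, 10990, 7008 and 9328 CPM in control wounds.

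Saa3, an acute phase protein, measured 2471, 1945, 213 and 154 CPM in diabetic members and 214, 17.7, 326 and 75.5 CPM in control members (2.28, SE 0.79, edgeR adjusted p = 0.747). It was higher in diabetic members on 3 of 4 days. In diabetic wounds the other C1q cells had 161, 278, 168 and 64.5 CPM of it and T cells 26.7 to 126 CPM. On day 3 it was found in 130 of 233 diabetic members, 1 of which held 629 of 2628 UMIs.

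Lipid-associated genes leaned the other way, with 5 of 18 positive, 4 at an unadjusted p under 0.05, all of them lower in diabetic members, and 0 past the threshold. The count over all genes at that p was 422 of 6938, in either direction. Trem2, a lipid receptor, stood at 26.9, 221, 281 and 383 CPM against 166, 358, 526 and 547 CPM (-0.93, SE 0.25, edgeR adjusted p = 0.622). Ctsd and Lpl had differences of -0.65 and -1.07. Of the resident genes outside the rule, 10 of 26 were positive and 0 passed, with a median of -0.21. Fcgrt had -0.69 and Gas6 -0.50, while Ccl8 had 0.48.

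**Figure D4:**
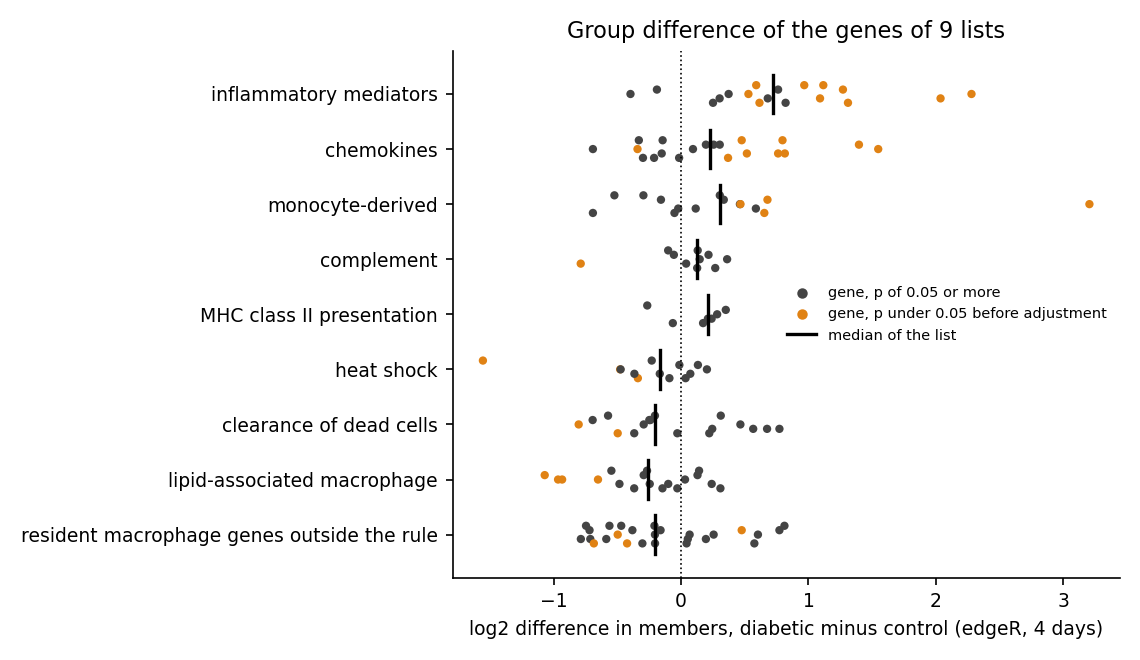
Log2 difference between diabetic and control members (edgeR, 4 days) for each tested gene of 9 lists, with a bar at each list's median and genes of unadjusted p under 0.05 in orange. None passed after adjustment, and the inflammatory mediators have a median of 0.72.

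The group difference in members was then tested against that in other C1q cells, with library as a block. Of 8911 genes, 0 passed (0.0%), 181 had an unadjusted p under 0.05, and DESeq2 also called 0. The lowest p-values were those of Phlda1, Ccr2, Hdc and Rapgef6, with log2 differences between the classes of -0.84, -0.73, 0.84 and 1.08 (edgeR adjusted p of 1.00 for each). Ccr2, the receptor that brings monocytes into tissue, stood at 295, 147, 264 and 147 CPM in diabetic members and 563, 751, 157 and 168 CPM in control members.

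Members changed with time by a slope fitted in common to both groups, and neither group was tested alone. With day as a number and group as a covariate, edgeR called 17 of 6938 genes higher on later days (0.245%) and 6 lower (0.0865%), and 610 had an unadjusted p under 0.05. Tgfbi, a matrix protein made by monocyte-derived cells, measured 1858, 1244, 853 and 788 CPM in diabetic and 1833, 755, 604 and 529 CPM in control members, a log2 change of -0.25 per day (SE 0.04, edgeR adjusted p = 0.0229). Itgam, which encodes CD11b, measured 1472, 649, 606 and 374 against 1247, 662, 552 and 572 CPM (-0.24 per day, SE 0.05, edgeR adjusted p = 0.0467). Msr1, a scavenger receptor, fell from 730.5 to 197 CPM in diabetic and from 869 to 312 CPM in control members (-0.27 per day). Coro1a, Ms4a8a and Retnlg, the last a gene of neutrophils, fell by 0.26, 0.40 and 0.65 per day on the log2 scale. Summed neutrophil markers in members were also lower on day 7 than on day 1, at 946 against 2997 CPM in diabetic and 1394 against 2784 CPM in control wounds. Summed monocyte markers were 924, 1231, 752 and 867 CPM in diabetic and 1965, 1117, 271 and 362 CPM in control members, and the part of either in the falls was not tested.

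Of the genes that rose, Lipa gained 0.34 per day (SE 0.05, edgeR adjusted p = 0.0044). Igf1, a growth factor for epidermis and fibroblasts, measured 161, 184, 511 and 563 CPM in diabetic and 185, 340.0, 501 and 463 CPM in control members (0.28 per day, edgeR adjusted p = 0.0403). Day 1 was lowest for both genes in each group. In the diabetic day 5 library, 48 of 91 Igf1 UMIs lay in 1 of 29 members. T cells had at most 92.9 CPM of Igf1.

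Among the steepest rises were transcripts known from other cell types. Col1a1, a fibrillar collagen of fibroblasts, measured 5.37, 7.40, 5.61 and 136 CPM in diabetic and 5.28, 30.9, 24.9 and 258 CPM in control members (1.00 per day, SE 0.12, edgeR adjusted p = 0.0019). T cells of the same libraries had 5.26, 0, 2.18 and 84.0 CPM and 11.3, 11.2, 17.8 and 225 CPM. Col1a2, Col3a1, H19 and Sparc rose by 0.92, 0.83, 0.79 and 0.64 per day. Trac, the T cell receptor alpha constant gene, reached 78.2 and 34.2 CPM on day 7, where other C1q cells had 79.0 and 51.9 CPM. Tnfrsf9, Il2rb, Thy1, Ets1 and Trbc2 rose with it, by 0.49 to 0.75 per day. For Mcpt4, a mast cell protease, 235 of 320 UMIs of the diabetic day 7 library lay in 1 member.

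Without the members that carried markers of T, B, NK, mast, fibroblast, keratinocyte or endothelial cells, 21 of the 23 genes could be tested and 17 stayed past the threshold, among them all 6 that fell. Col1a1 and Trac were not tested there, and Thy1, Myo1e, Trbc2 and Mcpt4 had edgeR adjusted p of 0.0527, 0.0558, 0.0586 and 0.386. The change of Thy1 was 0.574 per day there, against 0.584 with all members, and that of Mcpt4 0.368 against 0.659. Members with neutrophil or monocyte markers were kept in that fit. The set was weaker on other grounds: without day 1 only 7 of 23 remained, all rising, and without day 7 only 1, with 11 of the 23 tested. With the control day 5 library left out, 10 remained, 9 rising and 1 falling. Thinned to 1000 UMIs, 8 of the 23 were tested and 0 passed, and at a resident rate of at least 10, 10 passed. Igf1 and Lipa did not pass without day 1 (edgeR adjusted p = 0.863 and 0.151), nor did any of the 6 falling genes.

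**Figure D5:**
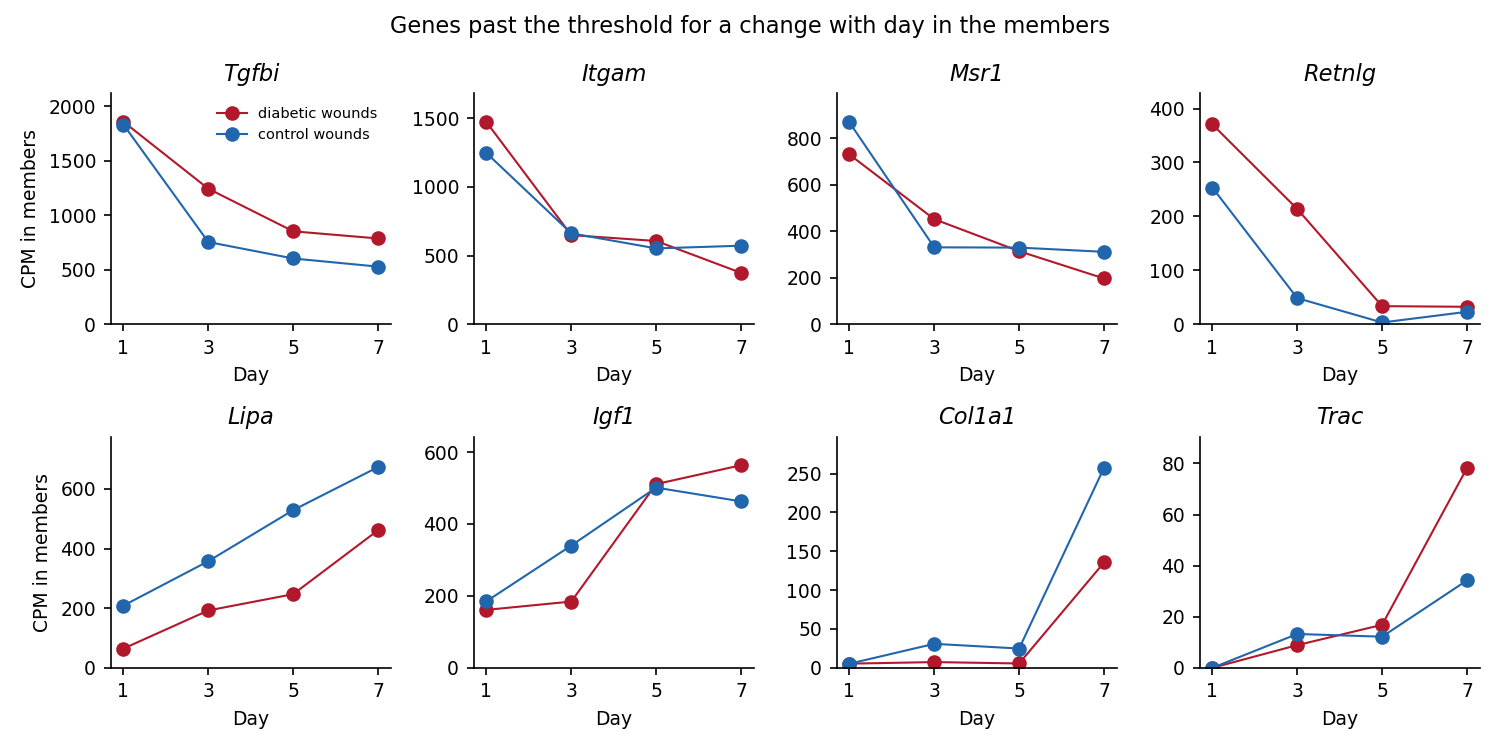
Levels (CPM of summed member UMIs) by day of 8 genes that passed edgeR's test for a change with day, with 1 library per point, so no error bar can be drawn. Tgfbi falls from 1858 to 788 CPM in diabetic and from 1833 to 529 CPM in control members, and Col1a1 is high on day 7 alone, at 136 and 258 CPM.

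Each day's diabetic and control library were last compared as ratios of CPM, with exact Poisson intervals for the counting error of these libraries alone. A gene was counted where the whole interval lay beyond 2-fold. On day 1, 22 of 2051 genes were higher (1.07%) and 17 lower (0.829%) in diabetic members. On day 3, 64 of 4379 were higher (1.46%) and 29 lower (0.662%). On day 5, 52 of 5401 were higher (0.963%) and 19 lower (0.352%), and on day 7, 24 of 6055 were higher (0.396%) and 8 lower (0.132%). Of all genes, 18 were higher and 0 lower on at least 2 days, 3 were lower and 0 higher on at least 2 days, and 9 were counted in both directions on different days.

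On day 1, Saa3 was 11.6-fold higher (9.10 to 14.8) in diabetic members and Il6, an acute phase cytokine, 31.2-fold higher (13.8 to 87.2), but 58 of its 92 UMIs lay in 1 member. Ppbp, a platelet chemokine, had a ratio of 0.033 (0.015 to 0.063) and Spp1, which encodes osteopontin, one of 0.089 (0.055 to 0.138). Spp1 was counted as higher on 1 other day. On day 3 it made up 431 of 1351269 UMIs in diabetic and 21 of 226496 in control members, and 1 diabetic member held 113 of the 431. Cxcl5, a chemokine for neutrophils, had 0 UMIs against 122, which lay in 5 of 52 control members, 65 of them in 1.

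On day 3, Saa3 was 110-fold higher (43.0 to 404) in diabetic members, and Chil3, a chitinase-like protein of monocytes and activated macrophages, 9.23-fold higher (5.88 to 15.4). Cxcl13, a chemokine for B cells, had 367 UMIs in 22 of 233 diabetic members and 0 in 38 control members, which is 20.5-fold against a floor of 3 counts for the library, with a lower bound of 16.6 for the ratio by its Poisson interval. Of 7 MHC class II genes measured that day, 4 were lower, with ratios of 0.291 (0.273 to 0.309) for Cd74, 0.354 for H2-Aa, 0.384 for H2-Eb1 and 0.406 for H2-Ab1. On the other 3 days 0 MHC class II genes were beyond 2-fold, and their summed level was higher in diabetic members, at 16769, 22787 and 24324 CPM on days 1, 5 and 7 against 9452, 14780 and 16896 CPM. The other C1q cells had the same order of groups on each day, with 10654, 20653, 27850 and 29960 CPM in diabetic and 8692, 28357, 18273 and 20875 CPM in control wounds. Ccr2 and Lpl had ratios of 0.195 (0.158 to 0.241) and 0.197 (0.149 to 0.262).

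On day 5, Chil3 was 26.9-fold higher (15.8 to 47.2) and S100a9, a calcium-binding protein of neutrophils, 17.0-fold higher (14.0 to 20.8). Single cells carried much of this, with 25 of 49 Chil3 UMIs and 172 of 259 S100a9 UMIs in 1 of 29 members each. Retnla had a ratio of 0.0080 (0.0022 to 0.0205), and Gpnmb, a marker of lipid-laden cells, one of 0.080 (0.016 to 0.234). Gpnmb was counted as higher on 1 other day. On day 3 it made up 158 of 1351269 UMIs in diabetic and 4 of 226496 in control members, and 1 diabetic member held 31 of the 158. Cd209b had a ratio of 0.206 (0.066 to 0.487) on day 5 and of 8.49 (4.64 to 17.0) on day 7, but all 5 diabetic UMIs of day 5 and 9 of the 12 control UMIs of day 7 lay in 1 member each.

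On day 7, Chil3 was 37.6-fold higher (25.1 to 59.0) in diabetic members, with UMIs in 74 of 194 diabetic and 19 of 191 control members, and 280 of the 841 diabetic UMIs lay in 1 member. Pdcd1lg2, a ligand of the checkpoint receptor PD-1, was 8.27-fold higher (3.75 to 21.5). Mmp9, a gelatinase, had a ratio of 0.142 (0.079 to 0.240). The immunoglobulin transcripts Igkc and Ighg2b were lower, with 21 against 394 and 0 against 81 UMIs, and in the control library they were spread over 146 and 62 of 191 members.

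Chil3 and Cxcl3 were higher on days 3, 5 and 7. Cxcl3, a chemokine for neutrophils, had ratios of 7.47 (4.70 to 12.7), 6.31 (5.11 to 7.76) and 2.45 (2.14 to 2.82), with 64 of the 144 diabetic UMIs of day 5 in 1 of 29 members and 133 of the 684 of day 7 in 1 of 194. On day 1 neither was higher, with ratios of 0.668 for Chil3 and 0.432 for Cxcl3. Over the 4 days Chil3 had a log2 difference of 3.21 (SE 0.76) that did not pass (edgeR adjusted p = 0.611). Chil3 was also higher in diabetic than in control wounds in other C1q cells, at 1105, 959, 77.4 and 201 CPM against 707, 114, 20.6 and 33.3 CPM, and in T cells on each day, at 339, 193, 14.7 and 50.2 CPM against 113, 31.7, 6.83 and 12.6 CPM.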

How the data were processed

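CD45+ wound cells of 8 libraries, 1 per group and day with 5 mice pooled in each, had been captured on the BD Rhapsody system by the study's methods, while the series record names 10X Genomics. The authors trimmed reads with fastp 0.20.1 (submitters' processing notes), used UMI-tools for barcodes and UMIs, and aligned with STAR to Ensembl release 92 by the methods, whereas the processing notes name the build mm9. The deposited counts are raw UMI counts per gene symbol and barcode, as whole numbers with no normalization. No coordinate in the files depends on the build, and positions given are those of GRCm38.

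Members were taken by the rule given in the report, on UMIs without mitochondrial genes, from 38959 barcodes. Cells are numbered serially in each table, so barcodes shared by libraries could not be counted, and 0 count columns were found more than once. UMIs of the members were summed per library and scaled to CPM. Shares have exact binomial (Clopper-Pearson) and ratios exact Poisson intervals at 95%, which cover counting error only. Ratios needed 50 UMIs in the libraries compared, and bounds against 0 used a floor of 3 counts per library.

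Tests used edgeR 4.0.16 in R 4.3.3 (quasi-likelihood, TMM, filterByExpr, Benjamini-Hochberg adjusted p of 0.05) on libraries with at least 20 members, with DESeq2 1.42.0 as an alternative. Days served as blocks for the group test. On simulated data, edgeR recovered 84.5% of 200 genes changed by a log2 of 2 in the group test, 70.5% of those changed by 0.333 per day in the day test and 74.5% of those changed by a log2 of 2 in the interaction. Other alternatives were no filter on low counts, a resident rate of at least 10, a C1q rate of at least 40, at least 500 genes, no mitochondrial filter, at least 2 resident UMIs, removal of doublets or of members with a rate of 10 or more of markers of T, B, NK, mast, fibroblast, keratinocyte or endothelial cells, thinning to 1000 UMIs, C1q cells as denominator, log2 of the day, no day block, and leaving out each day. Leaving out the control day 5 library was added after the data were seen. Scripts used scanpy 1.11.5 for Scrublet, scipy 1.17.1 for intervals, matplotlib 3.10.9, pandas 2.3.3 and Python 3.11.15.

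Genes named for an edgeR result are the 10 largest rises and 10 largest falls past the threshold, or, where fewer than 5 passed, the 5 with the lowest p. Against other C1q cells, they are the 12 in each direction with the largest ratio in their weakest library, and on each day up to 5 in each direction, of which those with a clear role are described. Genes of the rule, of the markers and of 20 gene lists were added. Chil3 and Cxcl3 were singled out for their repeats over days after their values were seen, and 1 gene that the rule names is not reported here. The members and the lists were chosen with earlier results of these data known.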

Additional observations from a re-analysis of the deposited data

Results flagged for a closer look

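The share of members moved in opposite directions on neighbouring days. On day 3 it was 3.50 percentage points higher in diabetic than in control wounds, and on day 5 the difference was -7.18 points. With 1 pooled library per group and day, the difference between these days was not tested.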

How the results depend on the processing

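The differences in the share of all cells kept their direction under the alternatives, except on day 7. With C1q cells as denominator they were -2.33, 15.8, -5.67 and 9.60 points on days 1, 3, 5 and 7, and the mean difference turned from -0.743 to 4.36. A resident rate of at least 10 gave -0.292 on day 1, 2.89 on day 3 and -5.62 on day 5. On day 1 a C1q rate of at least 40 gave -0.232, from -0.506. Thinning to 1000 UMIs, with the rule applied anew to the thinned cells, gave -8.89 on day 5 and reversed day 7, from 1.22 to -0.698.

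The group test called 0 genes, and without the filter on low counts 48 higher and 15 lower, where all genes share 1 spread. Leaving out each day gave 0 to 1 higher and 0 lower. For the interaction these counts were 6 higher and 1 lower without the filter, and 0 to 1 higher leaving out each day. Mcpt4 (interaction, log2 1.46) reversed to -0.068 without members carrying other types' markers.

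The count of genes higher on later days was 17, and 27 with DESeq2, 110 without the filter, 10 at a resident rate of at least 10, 11 without members carrying other types' markers, 0 thinned, 7 to 25 leaving out each day and 9 without the control day 5 library. The count of lower genes was 6, and 17 with DESeq2, 59 without the filter, 2 at a resident rate of at least 10, 0 thinned, 13 with log2 of the day, 0 to 13 leaving out each day and 2 without the control day 5 library. After thinning, 8 of the 23 genes were still tested. Of the 23, 21 were called again by DESeq2, 10 at the stricter resident rate and 20 with log2 of the day. The causes were not tested.

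For single named genes, 105 group values stayed on their side of the threshold and 10 passed it, all without the filter on low counts, and 119 day values stayed and 47 no longer passed. Members numbered 29 to 52 in 4 of the libraries, so genes there rest on few cells.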
